A study of Cricetulus griseus with 9 samples.

Results

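The transcripts described here code for chaperones of the endoplasmic reticulum (ER) and for components of the unfolded protein response, in CHO-K1 cells given more or less of the microRNA miR-29. They form a list of 33 genes grouped by function, drawn up with earlier results of these data known, and 31 of the 33 were found among 15557 genes with a level. Ppp1r15a and Sec61b were not analysed here. Levels carry mouse Ensembl identifiers, and the symbols are those that the list pairs with them. CHO-K1 is a subclone of a Chinese hamster ovary line that grows as a sheet of cells and is widely used to make secreted proteins. The cells were grown in medium with charcoal-stripped serum and transfected by the same lipid reagent for 48 h, either with anti-miR-29a or with one of the precursors pre-miR-29a and pre-miR-29b-1, and each group had 3 libraries. A pre-miR is a synthetic precursor that raises the level of its microRNA, and an anti-miR is a synthetic strand that binds and blocks one. Per the series text, this anti-miR acts on miR-29b-1 as well as miR-29a. Every group therefore carried a transfected RNA, and contrasts with anti-miR-29a set cells with added miR-29 against cells with blocked miR-29. Untreated cells were not analysed here. Levels of mature microRNAs are not among the values used, and markers of the cell line were not examined. Per the labels, PCR showed the intended rise or fall of the microRNAs.

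Proteins that enter the secretory pathway fold in the ER with the help of Hspa5 (BiP), Hsp90b1 (GRP94), the lectin chaperones Calr and Canx, and disulfide isomerases. When unfolded proteins gather there, sensors in the ER membrane encoded by Ern1, Eif2ak3 and Atf6 signal to the nucleus. Ern1 splices the mRNA of Xbp1, Eif2ak3 (PERK) slows translation and favours Atf4, Ddit3 (CHOP) and their targets, and the cleaved form of Atf6 raises chaperone genes. Atf4 and its targets also respond to amino acid shortage, which needs no ER sensor.

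The step between low values implied a depth between 15190000 and 20790000 reads per library. This holds only if FPKM were scaled by each library's own reads, which is not stated. FPKM are fragments scaled to the length of the gene model and to the depth of the library, so that levels of different genes can be set side by side. In the 25 listed genes with 1 gene model, the lowest value in any library rested on 338 implied reads and the highest on 200507. The listed genes were abundant, with a median of 190.5 FPKM over the 9 libraries against 38.2 FPKM for the 9504 genes tested. Leaving out Sec61a1, which is treated apart below, the median coefficient of variation within a group was 4.24% after pre-miR-29b-1, 6.41% after pre-miR-29a and 2.94% after anti-miR-29a. The library of pre-miR-29a replicate 1 had the lowest estimated weight, 0.213, followed by pre-miR-29a replicate 2 at 0.429. The highest weight, 3.54, was that of pre-miR-29a replicate 3. Results that depend on pre-miR-29a replicate 1 are given with and without it. The series text speaks of 3 transfection experiments and of sequencing in triplicate, without saying whether an experiment held all 3 molecules or 1. In the latter case, group differences and differences between experiments cannot be told apart. The p-values therefore reflect only variation among the libraries at hand, possibly technical.

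Relative to anti-miR-29a, most ER chaperones and isomerases were lower with either pre-miR. Chac1, Asns, Trib3 and at least 3 of 4 genes grouped as stress transcription factors, a group without Atf6, were higher. Below, fell and rose are meant against anti-miR-29a, and which side of a contrast moved cannot be told without untreated cells. Differences were tested in 1 fit over all genes, with a threshold of 0.05 on p-values adjusted over the 9504 genes tested. Against anti-miR-29a, 26 of the 31 listed genes passed after pre-miR-29b-1, 17 lower and 9 higher, where 55.2% of all tested genes passed, 29.4% lower and 25.8% higher. After pre-miR-29a, 24 passed, 14 lower and 10 higher, where 58.4% of all tested genes passed, 30.9% lower and 27.5% higher. The median log2 fold change of the listed genes was -0.26 after pre-miR-29b-1 and -0.11 after pre-miR-29a, against -0.01 and -0.02 over all tested genes. Most changes were small. A change of at least 1.5-fold past the threshold was seen for 4 lower and 2 higher genes after pre-miR-29b-1, where 10.3% and 5.71% of all tested genes reached this, and for 4 lower and 3 higher genes after pre-miR-29a, where 12.1% and 5.61% did. Libraries of a pre-miR group and of anti-miR-29a did not overlap for 28 genes after pre-miR-29b-1, 18 below and 10 above, and for 27 after pre-miR-29a, 17 below and 10 above, where 67.6% and 62.2% of all tested genes did not overlap. The anti-miR-29a libraries are shared by both contrasts, so their counts are not independent of each other. In bulk libraries, fewer cells with a transcript and less of it per cell cannot be told apart.

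**Figure D1:**
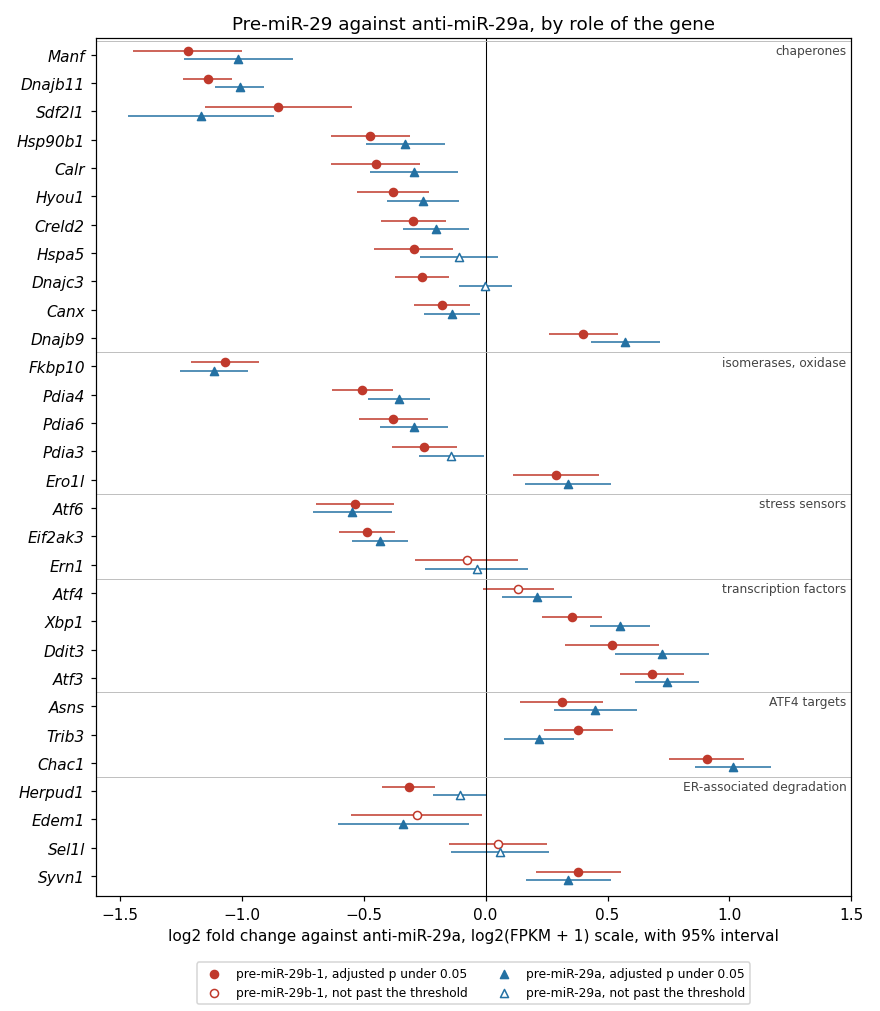
Log2 fold change of 30 listed genes against anti-miR-29a on the log2(FPKM + 1) scale (horizontal axis) with its 95% interval, for pre-miR-29b-1 (red circles) and pre-miR-29a (blue triangles), grouped by role, with filled symbols past an adjusted p of 0.05 and Sec61a1 left out. Chaperones and isomerases lie left of 0 except Dnajb9 and Ero1l. Dnajc3 after pre-miR-29a is at -0.00063, with an interval of -0.11 to 0.11. The genes grouped as transcription factors (without Atf6) and as ATF4 targets lie right of 0.

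The chaperones and co-chaperones were lower with few exceptions. Of 11 genes, 10 fell and 1 rose after pre-miR-29b-1, with a median log2 fold change of -0.38. After pre-miR-29a, 8 fell, 1 rose and 2 did not pass, with a median of -0.26. The riser in both was Dnajb9. Of all tested genes, 29.4% passed as lower after pre-miR-29b-1 and 30.9% after pre-miR-29a.

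Hspa5 (ENSMUSG00000026864), the Hsp70 chaperone of the ER lumen and a regulator of the stress sensors, was the most abundant of the listed genes and ranked 16 among all 15557 genes by mean FPKM. It is encoded on scaffold JH001529 of the CriGri_1.0 assembly from 304109 to 307901, plus strand, in 8 coding exons. Its level was 4533, 4595 and 4686 FPKM after pre-miR-29b-1, 4962, 5367 and 5384 FPKM after pre-miR-29a and 5645, 5575 and 5729 FPKM after anti-miR-29a, in the order of replicates 1 to 3. The groups did not overlap, and the pre-miR-29b-1 libraries were lowest with those of pre-miR-29a between. The log2 fold change was -0.30 (SE 0.072, adjusted p 0.00605, limma) after pre-miR-29b-1. After pre-miR-29a it was -0.11 (SE 0.072, adjusted p 0.213), which did not pass, though it passed after quantile normalization, at -0.37 with an adjusted p of 0.000354, and without moderation of the variances (adjusted p 0.0377). The small size of this change set Hspa5 apart from several of its partners below.

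Calr (ENSMUSG00000003814), the calcium-binding lectin chaperone calreticulin, lies on JH000286 from 390174 to 394530, plus strand, with 9 coding exons. It stood at 2845, 2934 and 3159.6 FPKM after pre-miR-29b-1, 3053, 3574 and 3355 FPKM after pre-miR-29a and 3892, 4121 and 4205 FPKM after anti-miR-29a. All anti-miR-29a libraries were above all others, while the pre-miR groups overlapped. The log2 fold changes were -0.45 (SE 0.081, adjusted p 0.00105) after pre-miR-29b-1 and -0.29 (adjusted p 0.0109) after pre-miR-29a. Hsp90b1 (ENSMUSG00000020048), the Hsp90 of the ER lumen, on JH000616 from 626866 to 640209, minus strand, with 17 coding exons, followed the same order. Its levels were 1981, 2049.8 and 2156 FPKM after pre-miR-29b-1, 2134, 2414 and 2291 FPKM after pre-miR-29a and 2738, 2845 and 3004 FPKM after anti-miR-29a. It fell by 0.47 on the log2 scale after pre-miR-29b-1 (SE 0.072, adjusted p 0.000359) and by 0.33 after pre-miR-29a (adjusted p 0.00304). Hspa5, Hsp90b1 and Calr together made up 1.02% ± 0.030 of all FPKM after anti-miR-29a (SD, n = 3), 0.805% ± 0.025 after pre-miR-29b-1 and 0.883% ± 0.018 after pre-miR-29a.

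The steepest falls among chaperone genes were in less abundant partners of Hspa5. Manf (ENSMUSG00000032575), a small ER protein that binds Hspa5 and can be secreted under stress, has its model on JH000209 from 587032 to 589191, minus strand, with 3 coding exons. Its level was 454, 433 and 473 FPKM after pre-miR-29b-1, 453, 547 and 579 FPKM after pre-miR-29a and 1043, 1179 and 964 FPKM after anti-miR-29a. Each of the pre-miR libraries was far below every anti-miR-29a library, and pre-miR-29a replicate 1 was level with the pre-miR-29b-1 libraries. The fall was 2.33-fold after pre-miR-29b-1 (log2 fold change -1.22, SE 0.099, adjusted p 5.41e-06) and 2.02-fold after pre-miR-29a (log2 fold change -1.01, adjusted p 1.63e-05).

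Dnajb11 (ERdj3, ENSMUSG00000004460) is a J-domain co-chaperone that hands unfolded substrates to Hspa5, encoded on JH000925 from 529031 to 545330, minus strand, in 10 coding exons. It stood at 129.8, 132 and 136 FPKM after pre-miR-29b-1, 141, 149 and 146 FPKM after pre-miR-29a and 291, 287 and 303 FPKM after anti-miR-29a, without overlap between any groups. The log2 fold changes were -1.14 (SE 0.045, adjusted p 6.36e-08) and -1.01 (adjusted p 1.06e-07), the lowest p-values of the chaperones in both comparisons. Sdf2l1 (ENSMUSG00000022769), an ER protein found in a complex with Dnajb11, lies on JH000340 from 1052468 to 1054628, minus strand, with 4 coding exons in each of 2 identical models. Its level was 110.5, 89.9 and 88.6 FPKM after pre-miR-29b-1, 90.4, 79.0 and 63.1 FPKM after pre-miR-29a and 196, 159.9 and 166 FPKM after anti-miR-29a. Its libraries were more scattered than those of the other chaperones, but the anti-miR-29a libraries remained above all others. The log2 fold changes were -0.85 (SE 0.13, adjusted p 0.000452) after pre-miR-29b-1 and -1.17 (adjusted p 4.84e-05) after pre-miR-29a.

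The other J-domain partners of Hspa5 behaved differently. Dnajb9 (ERdj4, ENSMUSG00000014905), which helps to hold the sensor Ern1 inactive and takes part in degradation, was the exception among the chaperones, on JH000095 from 2908149 to 2909709, plus strand, with 2 coding exons. It stood at 68.3, 59.5 and 67.5 FPKM after pre-miR-29b-1, 77.2, 72.1 and 70.8 FPKM after pre-miR-29a and 50.2, 49.7 and 47.0 FPKM after anti-miR-29a, with no overlap between groups. It rose by 0.40 on the log2 scale after pre-miR-29b-1 (SE 0.063, adjusted p 0.000445) and by 0.57 after pre-miR-29a (adjusted p 3.61e-05). Dnajc3 (p58IPK), an inhibitor of PERK and a co-chaperone, stood at 105 ± 1.23 FPKM (SD, n = 3) after pre-miR-29b-1, 126 ± 6.81 FPKM after pre-miR-29a and 126 ± 2.84 FPKM after anti-miR-29a. It fell after pre-miR-29b-1, at -0.26 (adjusted p 0.00135), while its 95% interval after pre-miR-29a was -0.11 to 0.11 (adjusted p 0.993).

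Within a library, the balance between Hspa5 and these partners shifted. Hspa5 was 19.2 ± 0.28 times the level of Dnajb11 after anti-miR-29a (SD, n = 3), 34.7 ± 0.33 times after pre-miR-29b-1 and 36.0 ± 0.74 times after pre-miR-29a. For Manf the ratio of Hspa5 was 5.36 ± 0.61 after anti-miR-29a, 10.2 ± 0.38 after pre-miR-29b-1 and 10.03 ± 0.85 after pre-miR-29a. For Dnajb9 it moved the other way, from 115.5 ± 5.5 after anti-miR-29a to 71.0 ± 5.6 and 71.6 ± 6.4 after the pre-miRs. These ratios were chosen after the levels were seen and were not tested.

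The remaining chaperones fell by less. Hyou1, a large Hsp70 relative that exchanges nucleotide on Hspa5, went from 989 ± 42.8 FPKM after anti-miR-29a to 761 ± 57.8 FPKM after pre-miR-29b-1 and 827 ± 27.7 FPKM after pre-miR-29a. Creld2, a stress-induced ER protein, stood at 627 ± 13.01 FPKM, 510.4 ± 5.74 FPKM and 545 ± 44.0 FPKM in the same order. Canx, the membrane-bound lectin chaperone calnexin, stood at 659 to 669.9 FPKM after pre-miR-29b-1, 662 to 716 FPKM after pre-miR-29a and 733 to 783 FPKM after anti-miR-29a. All of them passed in both comparisons, with Canx nearest to 0 at -0.18 (adjusted p 0.0134) and -0.14 (adjusted p 0.0393). The calls for Canx ended after quantile normalization, at -0.046 with an adjusted p of 0.63 after pre-miR-29b-1 and -0.073 with an adjusted p of 0.435 after pre-miR-29a. Without anti-miR-29a replicate 3 they also ended (adjusted p 0.063 and 0.147), and that after pre-miR-29a ended as well without pre-miR-29b-1 replicate 1, 2 or 3 (adjusted p 0.0557, 0.065 and 0.0628), anti-miR-29a replicate 1 (0.0735) or pre-miR-29a replicate 2 or 3 (0.0957 and 0.0944). The call for Creld2 after pre-miR-29a ended without pre-miR-29a replicate 3 (adjusted p 0.0564).

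**Figure D2:**
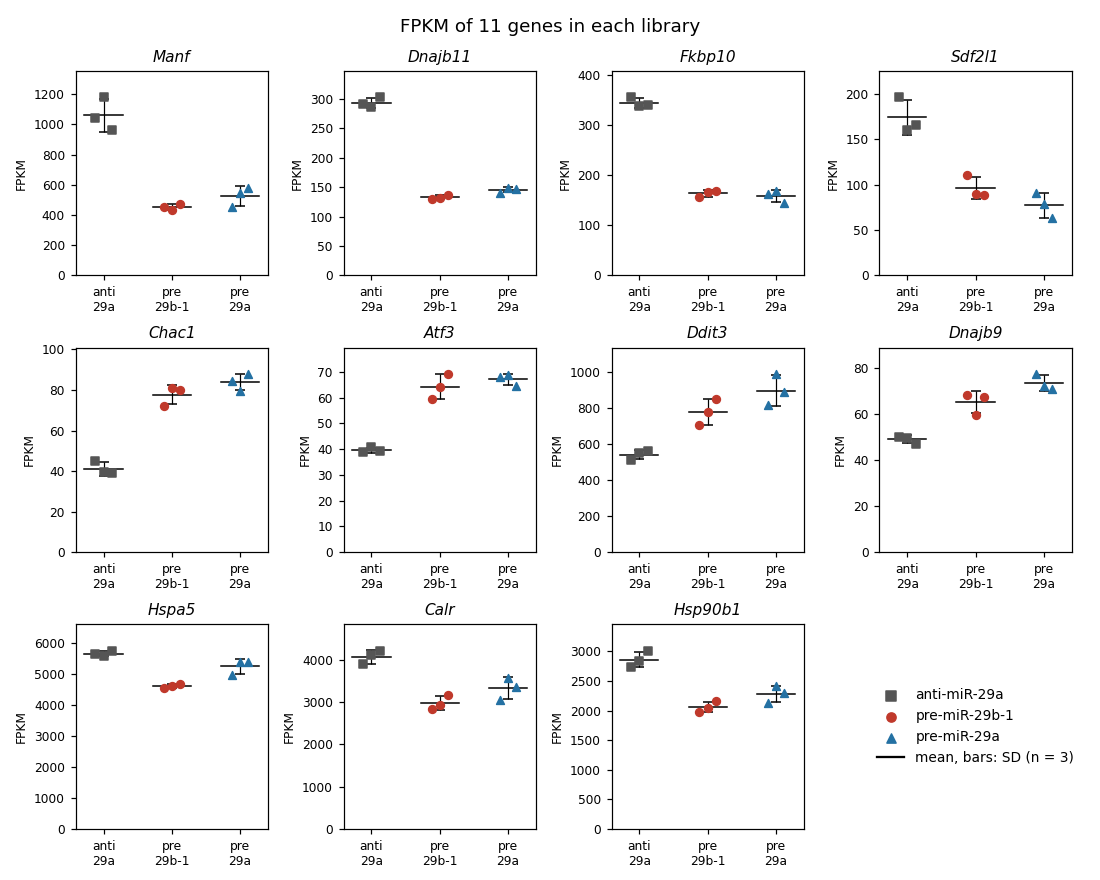
FPKM of 11 genes (vertical axes, each from 0) in the 3 libraries of each group, with lines for the mean and bars for the SD. Manf, Dnajb11, Fkbp10 and Sdf2l1 are lower in all pre-miR libraries, Chac1, Atf3, Ddit3 and Dnajb9 are higher in all of them, and Hspa5, Calr and Hsp90b1 are lower by a smaller share.

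Among genes of disulfide formation and proline isomerisation, 4 of 5 fell and 1 rose after pre-miR-29b-1, where 29.4% of all tested genes fell. After pre-miR-29a, 3 fell, 1 rose and 1 did not pass, where 30.9% of all tested genes fell. Fkbp10 (FKBP65, ENSMUSG00000001555), a prolyl isomerase of the ER that assists the folding of procollagen, fell most. Its model lies on JH000499 from 97888 to 104882, plus strand, with 10 coding exons. It stood at 156, 166 and 169 FPKM after pre-miR-29b-1, 164, 169 and 145 FPKM after pre-miR-29a and 356, 339 and 340.4 FPKM after anti-miR-29a. The pre-miR groups overlapped, and reached at most 169 FPKM where the lowest anti-miR-29a library was at 339 FPKM. The fall was 2.10-fold after pre-miR-29b-1 (log2 fold change -1.07, SE 0.062, adjusted p 5.78e-07) and 2.17-fold after pre-miR-29a (log2 fold change -1.12, adjusted p 3.81e-07).

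The protein disulfide isomerases, which form and reshuffle disulfide bonds in folding proteins, changed less than Fkbp10. Pdia4 stood at 769.5 ± 28.2 FPKM after pre-miR-29b-1 (SD, n = 3), 854 ± 45.8 FPKM after pre-miR-29a and 1092 ± 7.97 FPKM after anti-miR-29a, with log2 fold changes of -0.51 (adjusted p 4.62e-05) and -0.36 (adjusted p 0.000414). Pdia6 was at 1643 ± 44.2, 1744 ± 96.5 and 2137 ± 66.2 FPKM in the same order, with log2 fold changes of -0.38 (adjusted p 0.000619) and -0.29 (adjusted p 0.00264). Pdia3 (ERp57), which works with Calr and Canx on glycoproteins, was at 1546 ± 32.8, 1671 ± 89.7 and 1841 ± 30.4 FPKM. It passed after pre-miR-29b-1, at -0.25 (adjusted p 0.00516), and its value after pre-miR-29a was -0.14 (adjusted p 0.067). The latter passed without pre-miR-29a replicate 2 (adjusted p 0.045), after quantile normalization (0.023), with array weights (0.0183), without moderation (0.0299) and without a variance trend (0.0463). The riser was Ero1l, the oxidase that recharges these isomerases, at 155 to 176 FPKM after pre-miR-29b-1, 156 to 194 FPKM after pre-miR-29a and 133 to 138 FPKM after anti-miR-29a. Its log2 fold changes were 0.29 (adjusted p 0.0108) and 0.34 (adjusted p 0.00442).

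Transcripts of the stress sensors fell for 2 of 3 in both comparisons, where 29.4% and 30.9% of all tested genes fell. Atf6 (ENSMUSG00000026663), the sensor whose cleaved form raises chaperone genes, stood at 71.4 to 74.1 FPKM after pre-miR-29b-1, 64.3 to 80.3 FPKM after pre-miR-29a and 102 to 108 FPKM after anti-miR-29a. It fell by 0.53 on the log2 scale after pre-miR-29b-1 (SE 0.072, adjusted p 0.000157) and by 0.55 after pre-miR-29a (adjusted p 0.000119). Eif2ak3 (ENSMUSG00000031668), the kinase PERK, stood at 22.0 to 22.8 FPKM, 22.6 to 24.0 FPKM and 31.0 to 33.1 FPKM in the same order. Its log2 fold changes were -0.49 (SE 0.051, adjusted p 3.05e-05) and -0.43 (adjusted p 5.64e-05), without overlap with the anti-miR-29a libraries. Ern1, the kinase and nuclease IRE1, was the least abundant sensor, at 13.7 ± 0.671, 14.2 ± 2.16 and 14.5 ± 0.316 FPKM. Its groups overlapped, and the 95% intervals of its log2 fold change were -0.29 to 0.13 after pre-miR-29b-1 and -0.25 to 0.17 after pre-miR-29a.

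The genes grouped as transcription factors of the response, Atf3, Ddit3, Xbp1 and Atf4, moved up. After pre-miR-29b-1, 3 of 4 rose and Atf4 did not pass, and after pre-miR-29a all 4 rose. Of all tested genes, 25.8% and 27.5% passed as higher. Atf6, whose cleaved form also acts on genes, is counted with the sensors and fell in both comparisons. Atf3 (ENSMUSG00000026628), a factor induced by many stresses and a target of Atf4, is encoded on JH001584 from 33762 to 39342, minus strand, in 3 coding exons. It stood at 59.6, 64.2 and 69.1 FPKM after pre-miR-29b-1, 68.0, 68.6 and 64.5 FPKM after pre-miR-29a and 38.9, 40.8 and 39.3 FPKM after anti-miR-29a. The anti-miR-29a libraries were close together and below all others, and the pre-miR groups overlapped. The log2 fold changes were 0.68 (SE 0.059, adjusted p 8.29e-06) and 0.74 (adjusted p 3.92e-06).

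Ddit3 (CHOP, ENSMUSG00000025408), the factor that promotes cell death under prolonged stress, was an abundant transcript here, on JH000814 from 467997 to 468677, minus strand, with 2 coding exons. Its level was 706, 778 and 849 FPKM after pre-miR-29b-1, 815, 988 and 889.8 FPKM after pre-miR-29a and 514, 549 and 562 FPKM after anti-miR-29a. All pre-miR libraries were above all anti-miR-29a libraries. It rose 1.43-fold after pre-miR-29b-1 (log2 fold change 0.52, SE 0.086, adjusted p 0.000639) and 1.65-fold after pre-miR-29a (log2 fold change 0.72, adjusted p 6.1e-05). Xbp1 (ENSMUSG00000020484), whose spliced form drives chaperone and degradation genes, stood at 132 to 139 FPKM, 144 to 167 FPKM and 106 to 107 FPKM after pre-miR-29b-1, pre-miR-29a and anti-miR-29a. It rose by 0.36 on the log2 scale after pre-miR-29b-1 (adjusted p 0.000404) and by 0.55 after pre-miR-29a (adjusted p 1.89e-05). Gene-level values do not separate its spliced from its unspliced form. Atf4, which is controlled mainly at translation, was at 1070.1 ± 15.4, 1129.5 ± 91.4 and 974.7 ± 14.9 FPKM, with log2 fold changes of 0.13 (adjusted p 0.102) and 0.21 (adjusted p 0.0181). Neither call for Atf4 was stable. With only the groups compared in the fit, pre-miR-29b-1 passed (adjusted p 0.0156) and pre-miR-29a did not (adjusted p 0.0503). Leaving out pre-miR-29a replicate 2 or 3, or anti-miR-29a replicate 1 or 3, also ended the call after pre-miR-29a (adjusted p 0.0532, 0.0632, 0.0513 and 0.0604), and leaving out pre-miR-29a replicate 1 made the value after pre-miR-29b-1 pass (adjusted p 0.0143).

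The 3 genes grouped under the PERK-ATF4 branch, Chac1, Asns and Trib3, rose in both comparisons. Atf3, also a target of Atf4, is counted with the transcription factors. Of all tested genes, 25.8% passed as higher after pre-miR-29b-1 and 27.5% after pre-miR-29a. Chac1 (ENSMUSG00000027313), an enzyme that degrades glutathione and a target of Atf4 and Ddit3, lies on JH001934 from 134114 to 136611, plus strand, with 3 coding exons. It stood at 72.3, 81.2 and 79.8 FPKM after pre-miR-29b-1, 84.3, 79.7 and 87.7 FPKM after pre-miR-29a and 44.8, 39.4 and 38.9 FPKM after anti-miR-29a. All pre-miR libraries were above all anti-miR-29a libraries. It was the largest rise of a listed gene past the threshold, 1.87-fold after pre-miR-29b-1 (log2 fold change 0.91, SE 0.069, adjusted p 3.67e-06) and 2.02-fold after pre-miR-29a (log2 fold change 1.02, adjusted p 1.47e-06). Asns, which makes asparagine and is a marker of the response to amino acid shortage, stood at 223 to 244 FPKM, 228 to 282 FPKM and 188 to 192 FPKM, with log2 fold changes of 0.31 (adjusted p 0.006) and 0.45 (adjusted p 0.000631). Trib3, a pseudokinase that feeds back on Atf4 and Ddit3, stood at 286 to 313 FPKM, 268 to 274 FPKM and 215 to 253 FPKM. Its log2 fold changes were 0.38 (adjusted p 0.000665) and 0.22 (adjusted p 0.0138), and the second call ended without anti-miR-29a replicate 2 (adjusted p 0.0539).

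Genes of ER-associated degradation, the route that returns misfolded proteins to the cytosol, moved in both directions. After pre-miR-29b-1, 1 of 4 rose, 1 fell and 2 did not pass, and the same counts held after pre-miR-29a. These counts are near the shares of all tested genes, 25.8% higher and 29.4% lower after pre-miR-29b-1 and 27.5% and 30.9% after pre-miR-29a. Syvn1 (HRD1), the ubiquitin ligase of this route, rose in both, with libraries of 44.0 to 50.9 FPKM after anti-miR-29a, 56.4 to 65.5 FPKM after pre-miR-29b-1 and 55.1 to 63.0 FPKM after pre-miR-29a. The log2 fold changes of Syvn1 were 0.38 (adjusted p 0.00224) and 0.34 (adjusted p 0.00397). Sel1l, its partner in the ligase complex, had overlapping groups at 93.5 ± 0.555, 94.8 ± 13.9 and 90.4 ± 5.04 FPKM, with 95% intervals of -0.15 to 0.25 and -0.14 to 0.26 on the log2 scale. Herpud1, a membrane protein that organises the complex, fell after pre-miR-29b-1, where libraries were at 94.9 to 104 FPKM against 121 to 125 FPKM after anti-miR-29a (log2 fold change -0.32, adjusted p 0.000414), and stood at 111 to 119 FPKM after pre-miR-29a (adjusted p 0.0918). Edem1, which helps to extract misfolded glycoproteins, was at 38.5 ± 1.62, 37.5 ± 7.09 and 47.2 ± 3.63 FPKM, with log2 fold changes of -0.28 (adjusted p 0.0692) and -0.34 (adjusted p 0.0343). Its call after pre-miR-29a ended without anti-miR-29a replicate 1 (adjusted p 0.113), 2 (0.0536) or 3 (0.0543) and without pre-miR-29a replicate 2 (0.0655), with a log2 fold change of -0.18 in the last. Its value after pre-miR-29b-1 passed without pre-miR-29a replicate 1 (adjusted p 0.043) or 2 (adjusted p 0.00541).

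**Figure D3:**
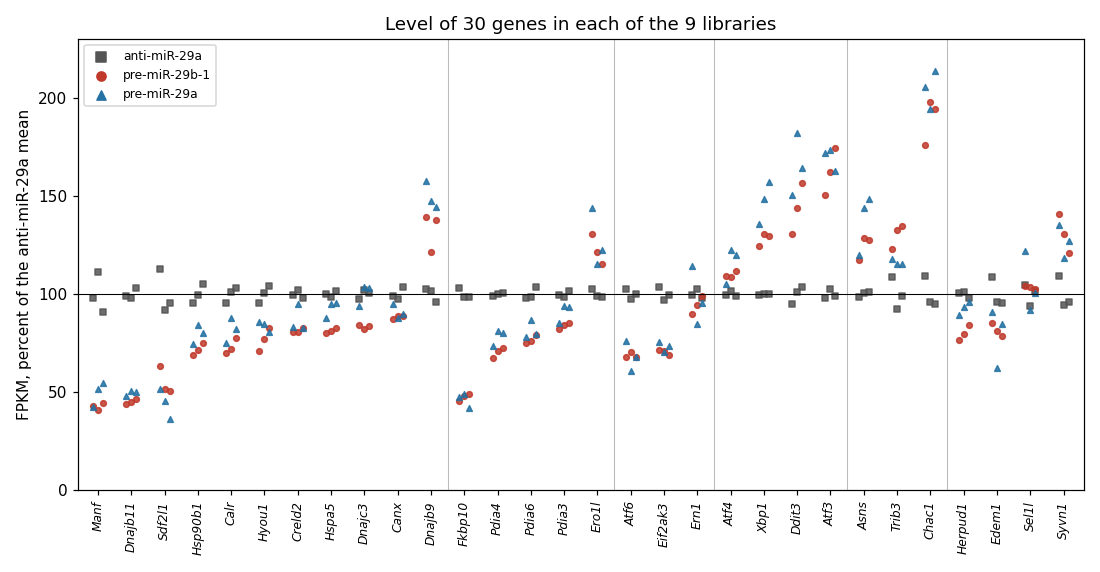
FPKM of 30 listed genes in each library as a percent of the mean of the anti-miR-29a libraries (vertical axis, line at 100), ordered by role as in the plot of fold changes, with Sec61a1 left out. The pre-miR libraries lie below 100 for most chaperones and above 100 for Atf3, Ddit3, Xbp1, Atf4, Chac1, Asns and Trib3.

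Sec61a1 (ENSMUSG00000030082), the pore of the translocon through which proteins enter the ER, could not be read from its own value. Its level was 2.52, 16.8 and 16.5 FPKM after pre-miR-29b-1, 15.4, 14.6 and 16.4 FPKM after pre-miR-29a and 0.0318, 3.49 and 22.8 FPKM after anti-miR-29a, so that libraries of 1 group ranged from near 0 to the highest value of all 9. Its log2 fold changes of 1.10 (adjusted p 0.362) and 1.78 (adjusted p 0.142) did not pass. Without anti-miR-29a replicate 3 both passed, at 2.26 (adjusted p 0.0354) and 2.93 (adjusted p 0.0106), and without anti-miR-29a replicate 1 the first was -0.0054. With the replicate block the second passed (adjusted p 0.0461). The within-group SD was 1.52 on the log2 scale, where the median over tested genes with 1 distinct model was 0.092. One of its 2 models, on JH000042 from 1410654 to 1432190, shares 1428 exon bases with ENSMUSG00000025816, a gene whose single model has 1431 coding bases. That gene stood at 12.9, 0.0749 and 0.0723 FPKM after pre-miR-29b-1, 0.0724, 0.0744 and 0.0723 FPKM after pre-miR-29a, and 22.2, 18.8 and 0.0759 FPKM after anti-miR-29a, high in the libraries where Sec61a1 was low. The sum of both genes was even within groups. It was 15.4 to 16.9 FPKM after pre-miR-29b-1, 14.6 to 16.5 FPKM after pre-miR-29a and 22.2 to 22.9 FPKM after anti-miR-29a, with means of 16.3 ± 0.75, 15.5 ± 0.90 and 22.5 ± 0.34 FPKM (SD, n = 3). The sum was formed after the values were seen, is given with no test, and cannot say which of the genes the reads came from.

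The listed genes together made up 1.65% ± 0.049 of all FPKM after pre-miR-29b-1 (SD, n = 3), 1.77% ± 0.027 after pre-miR-29a and 2.01% ± 0.042 after anti-miR-29a. Chaperones and co-chaperones accounted for 1.04% ± 0.030, 1.13% ± 0.017 and 1.35% ± 0.030 of all FPKM in the same order. The isomerases and the oxidase held 0.358% ± 0.0090, 0.375% ± 0.0045 and 0.450% ± 0.012. The group of transcription factors, which leaves out Atf6, went the other way. It held 0.171% ± 0.0071 and 0.183% ± 0.0063 after the pre-miRs and 0.135% ± 0.0017 after anti-miR-29a. In none of these sums did a pre-miR library overlap with an anti-miR-29a library, as held for 67.6% and 62.2% of single tested genes. The sum of the genes of ER-associated degradation did overlap. It held 0.0240% to 0.0247% after pre-miR-29b-1, 0.0218% to 0.0280% after pre-miR-29a and 0.0239% to 0.0262% after anti-miR-29a.

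The pre-miRs were then compared with each other, which asks whether miR-29b-1 and miR-29a differ in their effect on these genes. No listed gene passed, where 0.0105% of all tested genes did (limma), and at an unadjusted p under 0.05 there were 10 of 31, where 16.5% of all tested genes were under it. For 9 of the 31, the libraries of one precursor lay apart from those of the other, where this held for 18.9% of all tested genes. The 9 were Hspa5, Pdia4, Xbp1, Herpud1, Dnajb9, Dnajc3, Dnajb11 and Creld2, all lower after pre-miR-29b-1, and Trib3, higher after pre-miR-29b-1. Dnajc3 had the lowest p among them, with a log2 difference of -0.26 (95% interval -0.37 to -0.15, adjusted p 0.22). Herpud1 followed at -0.21 (95% interval -0.32 to -0.10, adjusted p 0.22). For 29 of the 31 genes the 95% interval of the difference stayed inside 1.5-fold either way, as it did for 92.7% of all tested genes.

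This count depended on pre-miR-29a replicate 1, which was singled out by its low weight. The weight is estimated from the scatter of these same data. Leaving out a library of high scatter tends to lower the estimated spread and add calls, so the calls below are no separate evidence of a difference. Without that library, 14.4% of the 9504 genes tested passed, 625 higher and 745 lower after pre-miR-29b-1. Among the listed genes 8 passed, all lower after pre-miR-29b-1. They were Hspa5, Pdia4, Xbp1, Herpud1, Dnajc3, Dnajb11, Manf and Asns, with log2 differences between -0.31 and -0.16. Hspa5 then differed by -0.22 (adjusted p 0.0373), Xbp1 by -0.25 (adjusted p 0.0214) and Dnajc3 by -0.31 (adjusted p 0.0197, limma). With libraries weighted by their estimated spread, 17 listed genes passed, 14 lower and 3 higher after pre-miR-29b-1. Of all tested genes 38.2% passed, 1863 lower and 1764 higher. In that run the pre-miR-29a group rested mostly on its replicate 3. Without pre-miR-29a replicate 1, the counts against anti-miR-29a were 28 after pre-miR-29b-1 and 24 after pre-miR-29a. The share of all tested genes was not computed for that run, and with all libraries it was 55.2% and 58.4%.

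**Figure D4:**
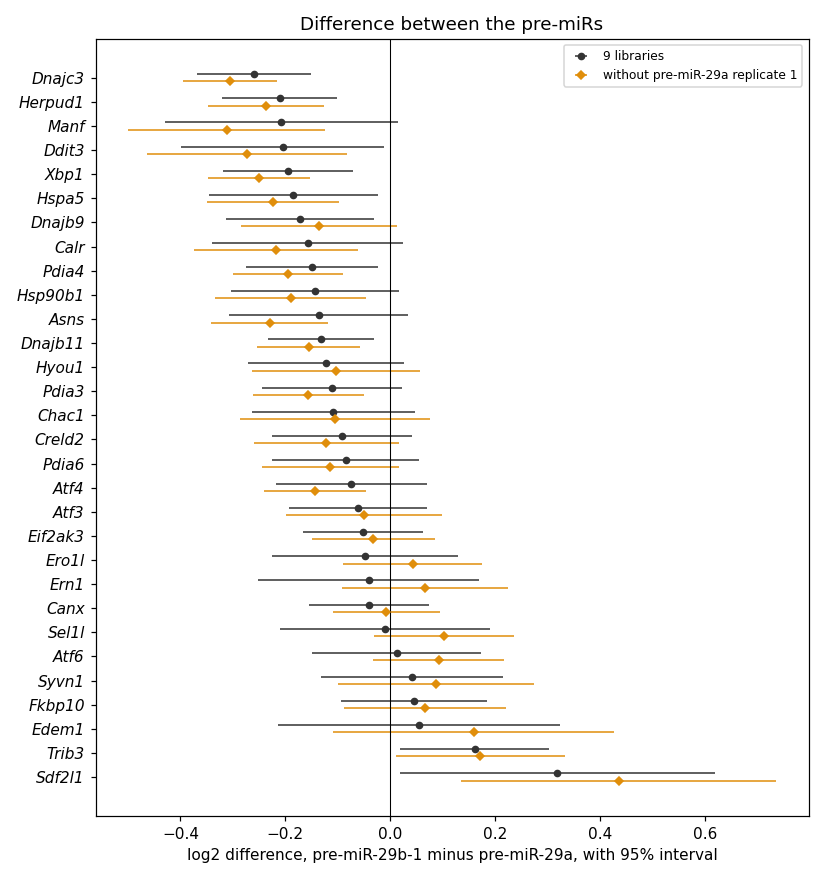
Log2 difference of pre-miR-29b-1 minus pre-miR-29a (horizontal axis) with its 95% interval for 30 listed genes, from all 9 libraries (black circles) and without pre-miR-29a replicate 1 (orange diamonds), with Sec61a1 left out. Most genes lie left of 0, with Dnajc3 lowest at -0.26 and Sdf2l1 highest at 0.32 over the 9 libraries.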

How the data were processed

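Per the labels' protocols, poly(A) libraries from 2 µg of total RNA were read on a NextSeq500. The authors deposited FPKM per gene and library. Per the submitters' processing notes, FastQC, TopHat2 2.0.13 and Cuffnorm were used, and for the version of Cuffnorm, its scaling and its strand setting nothing is stated in those notes or the labels. Per the file headers, the annotation holds alignments to CriGri_1.0 of mouse proteins from Ensembl release 66, and 99.87% of model lengths were multiples of 3, so lengths are coding lengths.

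Depth was read from low values in genes with 1 model of at least 3000 coding bases, where 99.1% to 100.0% of values up to 5 reads came within 0.2 of a whole read. Each library's depth is thus an estimate, which rests on scaling by that library's own reads.

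Expression on the scale of log2(FPKM + 1) was compared by limma 3.58.1 (R 4.3.3) in genes whose mean reached 1 FPKM. One fit held all 9 libraries and 1 term per group, and variances were moderated along their trend. The p-values are two-sided and were adjusted over all tested genes by the method of Benjamini and Hochberg. The scale of the fold changes makes those of low genes look smaller.

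The genes and lists were chosen with earlier results of these data known. All listed genes are named. Values in every library were given for genes past the threshold and changed at least 1.5-fold against anti-miR-29a, filled to 8 by the next largest change (Dnajb9), and for the 3 most abundant. No table used here pairs mouse Ensembl identifiers with symbols, so a longer list of pathway genes could not be matched. Promoter motifs and protein ends were planned but not examined, since no sequences were at hand. Alternatives changed the pseudocount (0.1 and 5), the filter (none and 5 FPKM), scaling, variance model, library weights, libraries in the fit, the replicate block and gene models, and left out each library.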

Additional observations from a re-analysis of the deposited data

How the results depend on the processing

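Against anti-miR-29a the counts stayed within 1.5 times of the reported ones under every alternative run. This limit was loose, since 1.5 times either count is more than the 31 listed genes. Of the 26 calls with pre-miR-29b-1, 25 held in each alternative run that tested the gene, as did 19 of the 24 with pre-miR-29a. The exceptions were Canx with pre-miR-29b-1, and Canx, Atf4, Creld2, Edem1 and Trib3 with pre-miR-29a. The call for Edem1 with pre-miR-29a also ended with no filter, after quantile normalization, without moderation or with only the groups compared (adjusted p 0.0606 to 0.0934), and that for Canx in the last (adjusted p 0.0973). Restriction to genes with 1 model left 25 listed genes, so the lower counts of 22 and 21 there come from fewer genes. Leaving out 1 library gave 26 to 28 and 21 to 24 calls. The share of all tested genes was not computed for any alternative run against anti-miR-29a. In the reported fit it was 55.2% and 58.4%. The counts of these runs therefore do not set the listed genes against all others. Between the pre-miRs the count was 0, but 17 with array weights (3 higher, 14 lower with pre-miR-29b-1, where 38.2% of all tested genes passed), 1 with the replicate block (Dnajc3, adjusted p 0.0382, where 1.94% passed) and 0 to 8 without 1 library, and 8 was reached by leaving out pre-miR-29a replicate 1. Residuals of same-numbered libraries correlated at -0.02 to 0.29, with 6 of 9 pairs over 0.1, and a library correlated best with its own number in 13 of 18 comparisons with another group. This is a hint of shared structure from the data. The numbers were not taken as pairs, since 3 pairs were not over 0.1 and no label says what a number marks. The replicate block gave 27 and 24 calls against anti-miR-29a, and there it added Edem1 with pre-miR-29b-1 (adjusted p 0.0277) and Sec61a1 with pre-miR-29a (adjusted p 0.0461) and ended Canx with pre-miR-29a (adjusted p 0.0503). Some values changed sign, and none passed on the side opposite to the reported one. Ern1 with pre-miR-29a went from -0.036 to 0.086 after quantile normalization and -0.14 to 0.057 without 1 library. Dnajc3 with pre-miR-29a went to 0.056 after quantile normalization, 0.0014 after median of ratios rescaling, 0.032 with array weights and -0.025 to 0.045 without 1 library. Sel1l with pre-miR-29a ranged from -0.053 to 0.15, and Sec61a1 with pre-miR-29b-1 from -0.0054 (adjusted p 0.996) to 2.26 (adjusted p 0.0354), without 1 library. The cause was not tested.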
